A study of Homo sapiens with 38 samples.

Results

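The genes described here encode subunits of the proteasome and 3 chaperones that help build its base. All are called subunit genes here. They were taken by name as 34 genes: PSMA1 to PSMA7, PSMB1 to PSMB7, PSMC1 to PSMC6 and PSMD1 to PSMD14. Earlier results of these data were known when the list was chosen. They are 34 of the 19746 genes that could be named on the arrays. Together they had 43 of the 34127 probes, and for the 9 genes with several probes the probe with the highest mean over all arrays was used. All 34 genes were well above background on all 38 arrays, so the filter on dim probes removed none of them.

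The arrays measured total RNA of A549 cells, a human lung carcinoma line widely used as a model of alveolar epithelium, exposed to fumed silica nanoparticles (NPs), an amorphous silica. The arrays form 3 sets, named here A, B and C, each with its own controls. Set A holds 4 control arrays, 4 arrays at 0.1 µg/cm2 and 4 at 1.0 µg/cm2, all at 24 h. Set B holds 4 control arrays and 4 at 1.5 µg/cm2, also at 24 h, and set C holds 3 arrays each of controls, 3.0 µg/cm2 and 6.0 µg/cm2 at 24 h and again at 72 h. Exposed and control cells alike were kept in serum-free medium during the exposure, so serum withdrawal is common to all groups, and the cells form 1 line, which limits them as a model of lung epithelium. Each array bears a biological and a technical replicate number that are the same, so the p-values measure the spread between arrays, part of which may be technical.

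The proteasome is the protease that degrades most ubiquitin-tagged proteins of the cell. Its core particle is a barrel of stacked alpha and beta rings whose cutting sites face inward, and its regulatory particle caps the barrel: a base of ATPases unfolds the substrate and opens the gate, receptors in the base bind ubiquitin, and the lid cuts the ubiquitin chain off. Subunit genes are known to be transcribed in concert when proteasome capacity falls short, mainly through the factor NFE2L1, and the related oxidative stress factor NFE2L2 also acts on some of them.

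The level of a gene is given as the log2 intensity relative to the 75th percentile of its array. A difference between groups is a log2 fold change with its standard error (SE) from limma, adjusted over all probes tested by the Benjamini-Hochberg method. A gene is said to have risen or fallen where its adjusted p was under 0.05, and to be modulated where the fold change was also at least 1.5. The 75th percentile intensity was 1380 to 3202 in set A, 740.4 to 1337 in set B and 838.3 to 1313 in set C, and no spot was saturated. All 5 epithelial markers examined (EPCAM, CDH1, KRT8, KRT18 and KRT19) were well above background on 38 of 38 arrays, as were the alveolar markers SFTPC, ABCA3 and NAPSA, whereas SFTPA1 was on 11 and SFTPB on 2. Of 10 markers of fibroblasts, leukocytes and endothelium, COL1A1, PTPRC, CD68 and CD14 were well above background on all 38 arrays and COL1A2 and PDGFRB on 0. CDH5 was so on 37, VWF on 27, PECAM1 on 3 and COL3A1 on 2. Detected markers differed widely in level. In the 24 h controls of set C the mean was 8.03 for KRT18, -1.81 for CD68, -3.98 for SFTPC and -5.26 for PTPRC. In RNA from a whole culture, fewer cells and less RNA per cell cannot be told apart. All exposed arrays of set C at 72 h were scanned on another day than all other arrays of set C. They also lay on other slides. For exposed against control at 72 h the exposure, the scan day and the slide therefore cannot be told apart. At 24 h all groups of set C lay on the same slides.

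After exposure to the higher doses, subunit genes rose and fell less often than all probes at 24 h. At 72 h the changes ran upward, less so at both doses under quantile normalization. At 6.0 µg/cm2 and 72 h, 15 of the 34 genes (44.1%) rose and 0 fell. Over all 21859 probes tested, 23.8% rose and 22% fell. At an unadjusted p under 0.05 the split of the subunit genes was 17 higher and 0 lower, where 53.9% of all probes passed in either direction. In 20 of the 34 genes all exposed arrays lay above all controls, as they did for 30.9% of probes. Their median log2 fold change was 0.17 against 0.04 over all probes, and it was above 0 in 31 of 34 genes (91.2%), where 54.1% of all probes lay above 0. Under quantile normalization these medians were 0.11 and 0.05, with 25 of 34 genes above 0. Then 10 of 34 genes rose and 0 fell, beside 5592 and 4840 of 21859 probes. The share of subunit genes that rose thus lay close to that of all probes. At 3.0 µg/cm2 and 72 h, 7 of 34 rose (20.6%) and 0 fell, beside 12.9% of all probes rising and 13.9% falling. There 15 were higher and 0 lower at an unadjusted p under 0.05, which 41.7% of probes reached. Under quantile normalization the median at this dose and time was 0.02 against 0.01 over all probes, instead of 0.09 against 0.03. Then 23 of 34 genes lay above 0, instead of 30, and 5 rose and 1 fell, beside 2548 and 3192 of 21959 probes. At 6.0 µg/cm2 and 24 h, in contrast to 72 h, 1 subunit gene rose and 5 fell. These shares of 2.94% and 14.7% lay below the 14.2% and 20% of all probes.

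**Figure D1:**
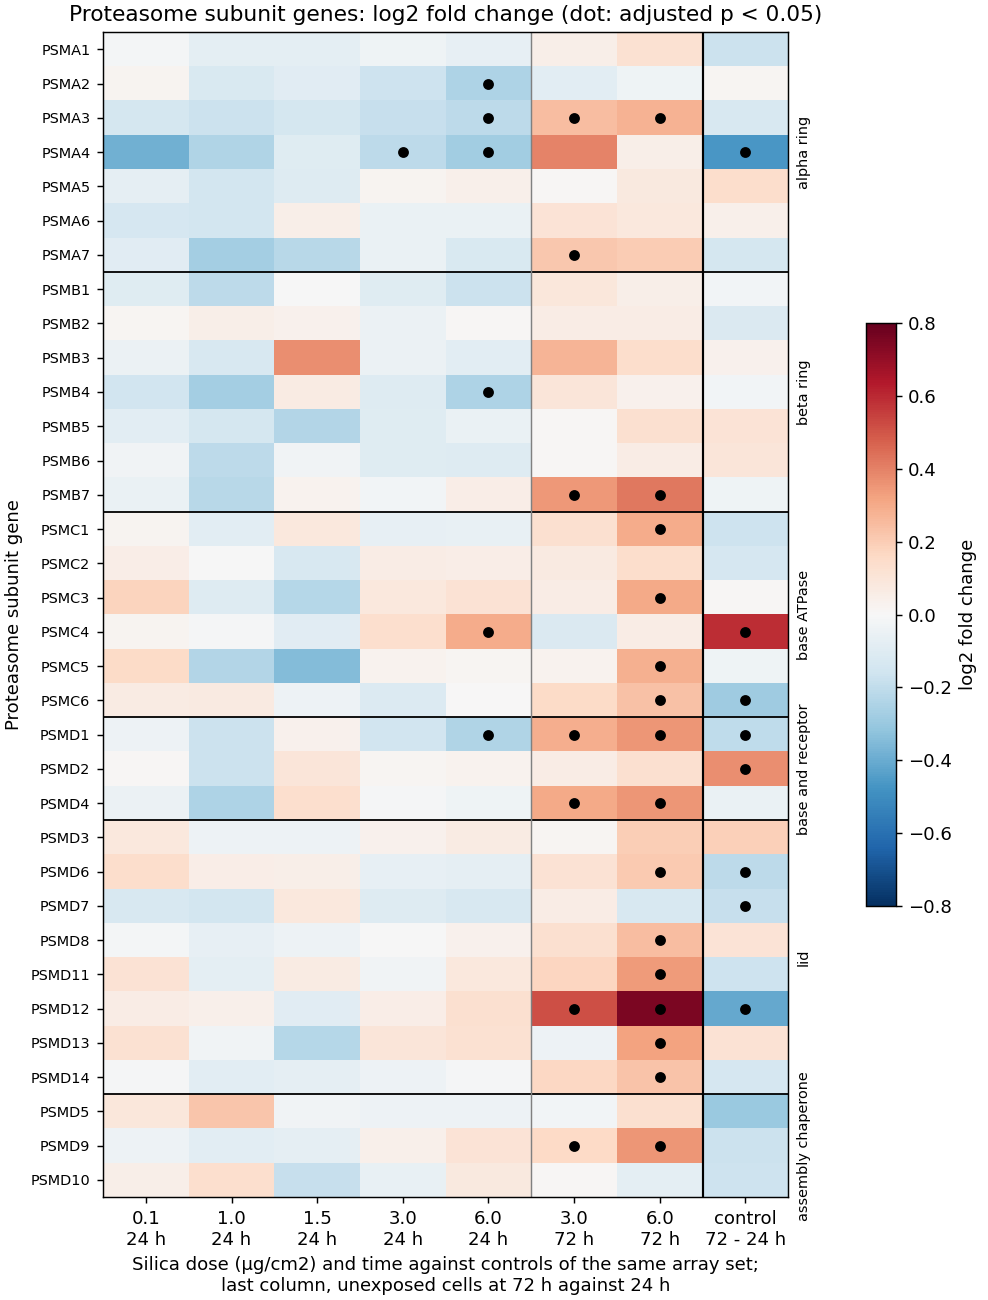
Log2 fold change (colour, red higher, blue lower) of the 34 proteasome subunit genes (rows, grouped by role) in 7 exposed groups against the controls of their own array set (columns, dose in µg/cm2 and time) and, in the last column, in controls at 72 h against 24 h. Dots mark an adjusted p under 0.05: 15 genes are marked at 6.0 µg/cm2 and 72 h, all of them higher, and none at the 3 lowest doses.

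The lid, which removes the ubiquitin chain, held the largest number of genes that rose at 6.0 µg/cm2 and 72 h: 6 of its 8 genes rose and 0 fell, with a median log2 fold change of 0.24. PSMD12, a scaffold subunit of the lid, was the only one of the 34 genes modulated in any exposed group against its controls. This was at 6.0 µg/cm2 and 72 h, where 6.63% of all probes were modulated upward. Its level was 1.51, 1.52 and 1.57 in the 72 h controls, 2.05, 2.06 and 2.04 at 3.0 µg/cm2, and 2.19, 2.34 and 2.33 at 6.0 µg/cm2. The 3 groups did not overlap and stood in the order of the dose. The log2 fold change was 0.75 (SE 0.07, adjusted p = 0.000318, n = 3 arrays per group), or 1.69-fold, at 6.0 µg/cm2 and 0.52 (SE 0.05, adjusted p = 0.00181), or 1.43-fold, at 3.0 µg/cm2. PSMD14, the metalloprotease that takes the ubiquitin chain off the substrate, had levels of 3.44, 3.42 and 3.37 in the 72 h controls and 3.66, 3.65 and 3.60 at 6.0 µg/cm2. Again no exposed array reached down to the controls, and the log2 fold change was 0.23 (SE 0.06, adjusted p = 0.0191). The arrays at 3.0 µg/cm2 read 3.61, 3.58 and 3.54, which gave 0.17 and missed the threshold (adjusted p = 0.0529). PSMD11, which clamps the lid to the core particle, rose by 0.34 at 6.0 µg/cm2, PSMD13 by 0.32, PSMD8 by 0.25 and PSMD6 by 0.21. PSMD7, the inactive partner of PSMD14, had the lowest change of the lid, -0.13 (SE 0.07, adjusted p = 0.21, 95% interval -0.31 to 0.05). Its arrays read 3.92, 4.01 and 3.94 in the controls and 3.95, 3.80 and 3.74 when exposed, so the groups overlapped.

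Of the 6 base ATPases, the ring that unfolds substrates and threads them into the core, 4 rose at 6.0 µg/cm2 and 72 h and the median change was 0.26. PSMC3 had the highest change, 0.30 (SE 0.09, adjusted p = 0.0315), with arrays at 3.13, 2.95 and 2.89 in the controls and 3.18, 3.35 and 3.35 when exposed. The groups did not overlap, although 1 control array stood close to the lowest exposed array. PSMC1, whose tail inserts into the alpha ring to open its gate, had levels of 4.68, 4.60 and 4.61 in the controls and 4.93, 4.91 and 4.95 at 6.0 µg/cm2, with no overlap, and rose by 0.30 (SE 0.06, adjusted p = 0.00706). PSMC5 and PSMC6 rose by 0.28 and 0.24. PSMC4 had the lowest change of the class, 0.06 (adjusted p = 0.544, 95% interval -0.12 to 0.24), with 4.09, 4.00 and 4.02 in the controls and 4.00, 4.07 and 4.22 when exposed. At 3.0 µg/cm2 and 72 h, 0 of the 6 ATPase genes rose (limma), although 2 had an unadjusted p under 0.05.

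Among the 3 scaffold and receptor subunits of the base, 2 rose at 6.0 µg/cm2 and 72 h. PSMD1, the scaffold on which a ubiquitin receptor docks, had levels of 3.79, 3.85 and 3.78 in the controls, 4.12, 4.08 and 4.09 at 3.0 µg/cm2 and 4.16, 4.16 and 4.15 at 6.0 µg/cm2. Both exposed groups lay above every control array, and the log2 fold changes were 0.29 (SE 0.05, adjusted p = 0.00977) and 0.35 (SE 0.06, adjusted p = 0.00318). A second probe of PSMD1 changed by 0.16 at 6.0 µg/cm2 and did not pass (adjusted p = 0.071). PSMD4, a ubiquitin receptor, rose by 0.35 at 6.0 µg/cm2 and by 0.30 at 3.0 µg/cm2. PSMD2, the scaffold that receives shuttle proteins, had arrays at 5.24, 5.20 and 5.06 in the controls and 5.21, 5.29 and 5.38 at 6.0 µg/cm2. These overlapped, its change of 0.13 (SE 0.08) had an adjusted p of 0.219, and its second probe pointed the other way, at -0.18 (adjusted p = 0.338).

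In the beta ring, which holds the cutting sites, 1 of 7 genes rose at 6.0 µg/cm2 and 72 h, and the median change was 0.06. It was PSMB7, which carries the trypsin-like activity. Its arrays read 4.80, 4.77 and 4.75 in the 72 h controls, 5.10, 5.18 and 5.07 at 3.0 µg/cm2, and 5.12, 5.20 and 5.27 at 6.0 µg/cm2. No exposed array reached down to the controls, and the log2 fold change was 0.34 (SE 0.05, adjusted p = 0.0077) at the lower and 0.42 (SE 0.06, adjusted p = 0.00255) at the higher dose. PSMB5, the chymotrypsin-like subunit, had arrays at 5.40, 5.45 and 5.41 in the controls and 5.57, 5.47 and 5.60 at 6.0 µg/cm2. The exposed arrays were again the higher ones, but the change of 0.13 (SE 0.06) did not pass (adjusted p = 0.141, 95% interval -0.02 to 0.28). PSMB6, the caspase-like subunit, read 5.80, 5.75 and 5.74 in the controls and 5.85, 5.78 and 5.84 when exposed, a change of 0.06 (adjusted p = 0.442, 95% interval -0.08 to 0.20). The lowest change of the ring was that of PSMB4, a structural subunit, 0.03 (adjusted p = 0.764), whose arrays ran from 5.02 to 5.27 when exposed and from 5.06 to 5.17 in the controls.

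In the alpha ring, which forms the gate of the barrel, 1 of 7 genes rose at 6.0 µg/cm2 and 72 h, with a median change of 0.08. PSMA3 read 4.05, 4.23 and 4.17 in the 72 h controls, 4.40, 4.42 and 4.38 at 3.0 µg/cm2, and 4.46, 4.44 and 4.41 at 6.0 µg/cm2. The exposed arrays lay above all controls, and the change was 0.25 (SE 0.06, adjusted p = 0.0347) and 0.28 (SE 0.07, adjusted p = 0.0174). PSMA7 rose at 3.0 µg/cm2 alone, by 0.22 (adjusted p = 0.0276). PSMA2 had the lowest change of the ring at 6.0 µg/cm2, -0.04 (adjusted p = 0.683), with 4.45, 4.41 and 4.41 in the controls and 4.46, 4.41 and 4.31 when exposed. A second probe of PSMA1 rose by 0.44 (adjusted p = 0.00549), where the brighter probe of the same gene gave 0.12 (adjusted p = 0.146).

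Of the 3 chaperones that help build the base, PSMD9 rose. Its arrays read 3.57, 3.58 and 3.59 in the 72 h controls, 3.71, 3.75 and 3.75 at 3.0 µg/cm2, and 3.92, 3.91 and 3.98 at 6.0 µg/cm2. The 3 groups stood apart, with log2 fold changes of 0.16 (SE 0.04, adjusted p = 0.0438) and 0.36 (SE 0.06, adjusted p = 0.00332), but a second, more variable probe of PSMD9 gave -0.22 (SE 0.11, adjusted p = 0.186) at 3.0 µg/cm2 and 0.16 (SE 0.14, adjusted p = 0.381) at 6.0 µg/cm2. PSMD5 ran from 0.06 to 0.48 in the controls and from 0.32 to 0.50 when exposed (change 0.13, adjusted p = 0.399). PSMD10 read 1.09, 1.15 and 1.18 when exposed, and 2 controls, at 1.24 and 1.31, lay above these while the other control lay among them, a change of -0.08 (adjusted p = 0.442).

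The count of 15 genes depended on single arrays: it was 8 without control replicate 2, 8 without control replicate 3 and 7 without the exposed replicate 2 of the 72 h groups. In the same order, 3231 of 22202, 4242 of 21926 and 3993 of 22403 probes rose in these fits. The share of subunit genes that rose thus lay closer to that of all probes than with all arrays. PSMB7, PSMC1, PSMD1, PSMD4, PSMD9, PSMD11 and PSMD12 kept an adjusted p under 0.05 with each of the 6 arrays left out in turn. The count of 7 at 3.0 µg/cm2 was 4 without control replicate 1 or 2, beside 1694 of 22124 and 915 of 22254 probes. It was also 4 without exposed replicate 2 or 3, beside 1393 of 22198 and 1928 of 22305 probes. In the same 72 h comparison at 6.0 µg/cm2, 5 of 5 epithelial markers fell, CDH1 by 1.42 and EPCAM by 1.17, and of the 6 measurable markers of other cell types 1 rose (CD68, 0.61) and 2 fell (CD14, by 1.39, and COL1A1, by 1.65). The part of these shifts in the subunit gene results was not tested.

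**Figure D2:**
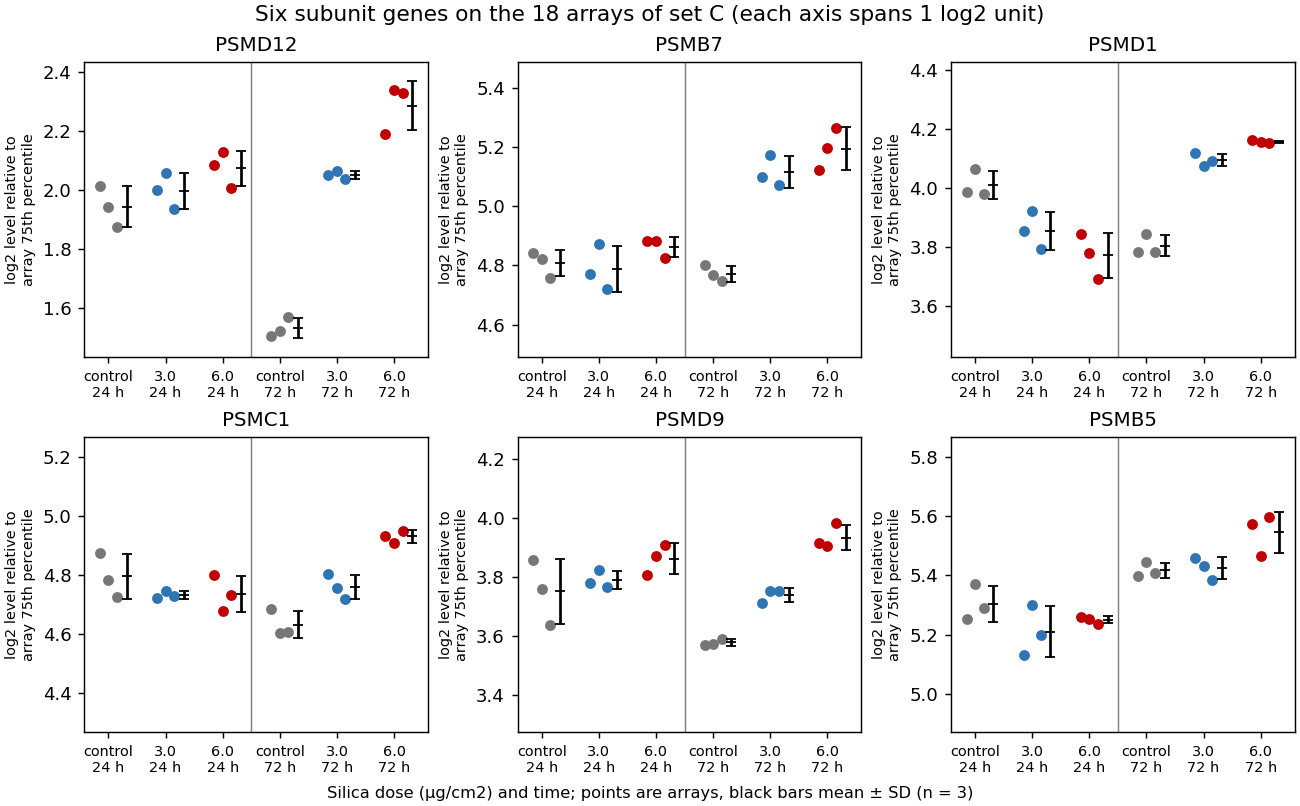
Levels (log2 relative to the array's 75th percentile, each panel spanning 1 unit) of PSMD12, PSMB7, PSMD1, PSMC1, PSMD9 and PSMB5 on the 18 arrays of set C (grey, controls; blue, 3.0 µg/cm2; red, 6.0 µg/cm2; black bars, mean ± SD, n = 3). PSMD12 in the 72 h controls lies between 1.51 and 1.57, below every other array of its panel, and PSMB5 at 72 h runs only from 5.38 to 5.60 over controls and both doses.

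RefSeq promoter windows, which run from 250 bases before to 50 bases after a start site, were at hand for 29 of the 34 genes. PSMA7, PSMB1, PSMB6, PSMB7 and PSMD4 had no entry. Of the genes that rose at 6.0 µg/cm2 and 72 h with every array left out in turn, the 5 with an entry are printed here, so that the letters shared or not shared by genes that moved together can be seen. They are written 5′ to 3′ on the strand of the gene, with 2 motifs in capitals on either strand: TGACNNNGC (reverse GCNNNGTCA), the core of the antioxidant response element that NFE2L1 and NFE2L2 bind, and CCGGAAG (reverse CTTCCGG), an element of ETS-type factors. On build GRCh38.p14 the windows lie at chr17:67366528-67366827 (PSMD12, minus strand), chr2:231056617-231056916 (PSMD1, plus strand), chr12:121888540-121888839 (PSMD9, plus strand), chr14:90256303-90256602 (PSMC1, plus strand) and chr17:32444260-32444559 (PSMD11, plus strand).
PSMD12: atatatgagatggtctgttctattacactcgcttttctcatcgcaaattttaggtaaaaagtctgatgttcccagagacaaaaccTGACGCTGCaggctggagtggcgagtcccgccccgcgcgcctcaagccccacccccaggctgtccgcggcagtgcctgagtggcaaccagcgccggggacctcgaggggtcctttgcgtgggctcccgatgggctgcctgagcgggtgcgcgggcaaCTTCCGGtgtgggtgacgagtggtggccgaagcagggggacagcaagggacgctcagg
PSMD1: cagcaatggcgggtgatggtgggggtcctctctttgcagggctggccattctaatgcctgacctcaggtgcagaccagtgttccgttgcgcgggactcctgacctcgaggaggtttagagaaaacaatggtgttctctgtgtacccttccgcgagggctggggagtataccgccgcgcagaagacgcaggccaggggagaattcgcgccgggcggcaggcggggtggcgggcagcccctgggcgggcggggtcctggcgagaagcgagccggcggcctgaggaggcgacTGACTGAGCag
PSMD9: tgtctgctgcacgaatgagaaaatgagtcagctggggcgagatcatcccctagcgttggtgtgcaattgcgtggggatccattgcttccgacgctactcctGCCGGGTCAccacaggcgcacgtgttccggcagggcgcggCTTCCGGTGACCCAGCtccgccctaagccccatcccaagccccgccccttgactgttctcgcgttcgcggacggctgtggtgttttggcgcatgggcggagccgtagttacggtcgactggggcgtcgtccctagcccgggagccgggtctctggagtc
PSMC1: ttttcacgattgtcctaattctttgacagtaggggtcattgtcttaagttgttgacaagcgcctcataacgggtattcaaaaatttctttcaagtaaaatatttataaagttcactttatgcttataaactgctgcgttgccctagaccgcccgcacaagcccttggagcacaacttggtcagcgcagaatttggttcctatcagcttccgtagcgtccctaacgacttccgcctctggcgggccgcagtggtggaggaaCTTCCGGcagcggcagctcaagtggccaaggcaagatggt
PSMD11: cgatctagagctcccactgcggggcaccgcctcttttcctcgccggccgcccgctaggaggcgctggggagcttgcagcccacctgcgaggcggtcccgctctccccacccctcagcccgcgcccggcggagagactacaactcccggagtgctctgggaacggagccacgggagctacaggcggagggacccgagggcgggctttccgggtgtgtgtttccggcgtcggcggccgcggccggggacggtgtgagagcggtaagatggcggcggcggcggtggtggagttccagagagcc
The PSMD12 window holds 1 match of each motif, the antioxidant element beginning 165 bases and the ETS-type element 8 bases before the start. PSMD9 holds 2 antioxidant elements and 1 ETS-type element, of which 2 abut without overlap. PSMD1 holds 1 antioxidant element, which begins at base 40 after the start, and PSMC1 holds 1 ETS-type element only. PSMD11 holds 0 matches of either motif.

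Over the 29 genes, TGACNNNGC was present in 9 (31%), where 16.1% of the 27305 genes of the promoter table had it in at least 1 window. Of the 13 genes that rose at 6.0 µg/cm2 and 72 h and had a window 4 held it, and of the other 16 genes 5 did. CCGGAAG was present in 11 of 29 (37.9%), against 12.2% of all genes, in 8 of the 13 that rose and in 3 of the other 16. CCAAT, bound by NF-Y, was in 55.2% (39.7% of all genes), in 6 of 13 and 10 of 16. The GC box GGGCGG, bound by Sp-type factors, was in 65.5% (48.3% of all genes), in 10 of 13 and 9 of 16. The median log2 fold change at 6.0 µg/cm2 and 72 h was 0.24 in genes with CCGGAAG and 0.13 without it, 0.23 and 0.14 for GGGCGG, 0.20 and 0.14 for TGACNNNGC and, the other way, 0.14 and 0.24 for CCAAT. No match of TGACNNNGC overlapped another of the motifs in these windows. A match describes letters in the window and not a bound site, and these shares were not tested.

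**Figure D3:**
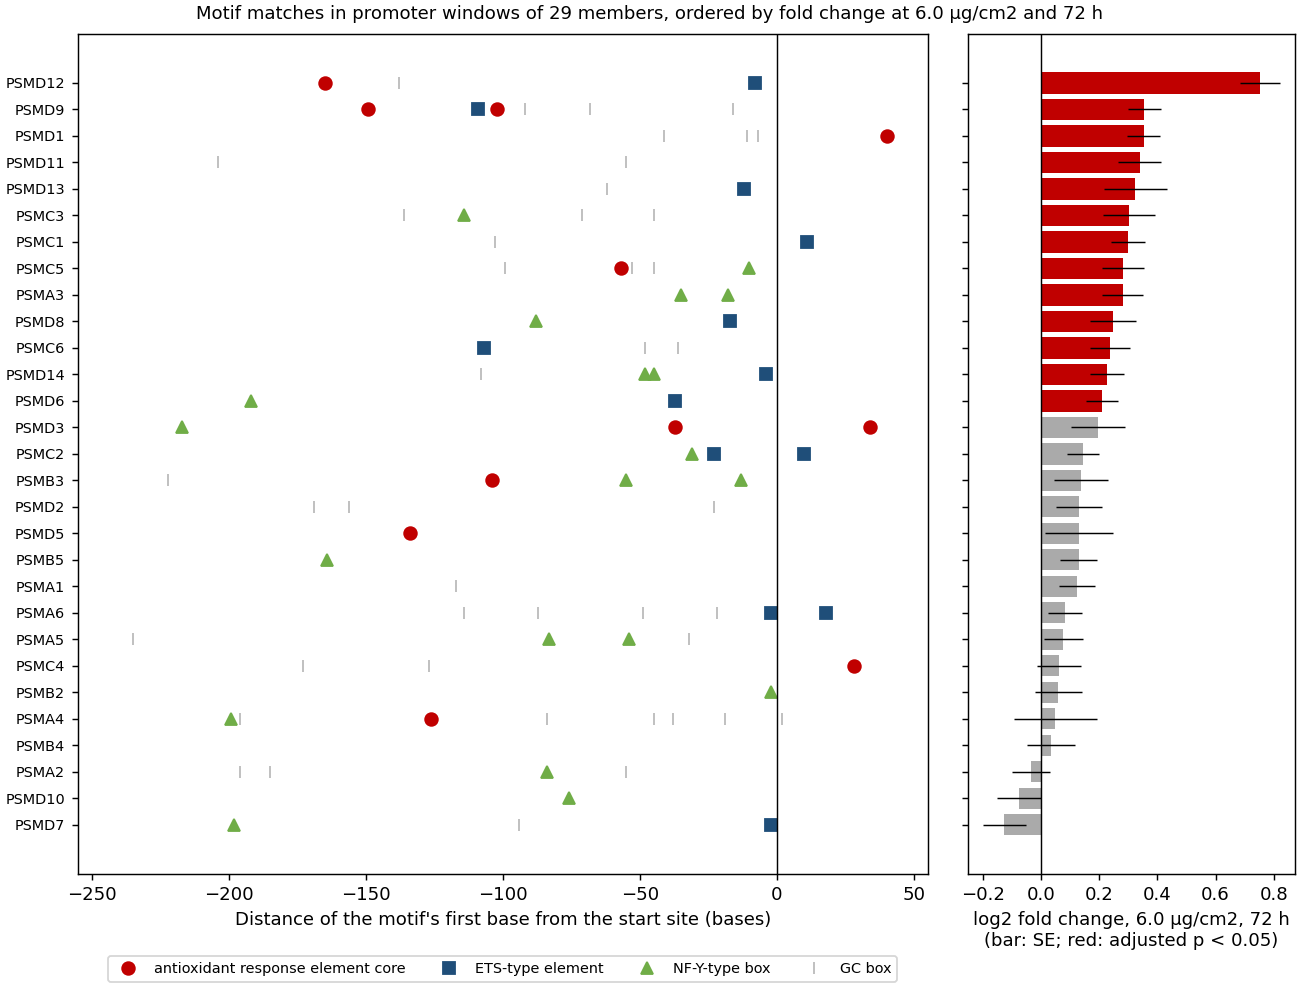
Left, distance from the start site (bases) of each match of 4 motifs in the promoter windows of 29 subunit genes, with all windows of a gene on 1 row (red circles, antioxidant response element core; blue squares, ETS-type element; green triangles, NF-Y-type box; grey bars, GC box). Right, log2 fold change with SE at 6.0 µg/cm2 and 72 h, red where the adjusted p was under 0.05. The ETS-type element stands in 8 of the 13 red rows and 3 of the 16 grey rows, and the antioxidant element in 4 and 5.

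The doses at 72 h were compared directly, since both exposed groups were scanned on 1 day. Of the 34 genes 1 was higher at 6.0 than at 3.0 µg/cm2 (2.94%, beside 6.81% of all probes) and 0 were lower (beside 9.95%), with 8 higher and 1 lower at an unadjusted p under 0.05, which 33% of probes reached. The gene was PSMD13, a lid subunit, with a difference of 0.37 (SE 0.07, adjusted p = 0.0224). PSMD12 differed by 0.23 between the doses (adjusted p = 0.0528). Over the 34 genes the median difference was 0.07 and 25 were above 0 (73.5%, beside 48.4% of all probes), where the median of all probes was -0.01. The call of PSMD13 was lost with any 1 of 5 of the 6 arrays left out, all but replicate 1 at 6.0 µg/cm2, without which 2 genes were higher and 1 lower.

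Array by array, the median of the 34 genes relative to the mean of the 72 h controls was 0.12, 0.11 and 0.06 at 3.0 µg/cm2 and 0.18, 0.18 and 0.19 at 6.0 µg/cm2. The 3 control arrays lay at -0.01, 0.01 and -0.02, below all 6 exposed arrays. These medians were not taken under quantile normalization, where the median change was 0.02 at 3.0 µg/cm2 and 0.11 at 6.0 µg/cm2. At 24 h the arrays at 6.0 µg/cm2 had medians of 0.01, -0.02 and -0.07, within or near the control arrays of that time at 0.04, 0.01 and -0.04.

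**Figure D4:**
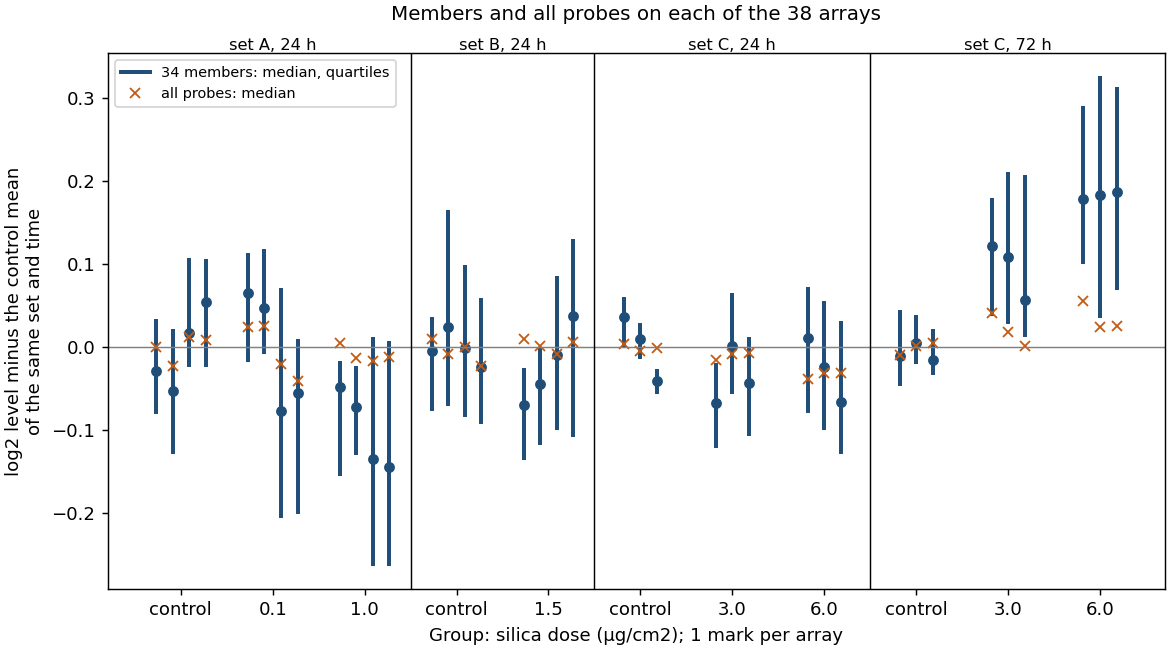
Median (dot) and quartiles (bar) of the 34 subunit genes, and median of all probes (cross), on each of the 38 arrays, as log2 level minus the mean of the controls of the same set and time; groups are labelled by dose in µg/cm2. The arrays at 6.0 µg/cm2 and 72 h lie between 0.18 and 0.19, while their all-probe medians lie between 0.02 and 0.06.

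At 24 h the changes at 6.0 µg/cm2 ran in both directions, with a median of -0.02, which became 0.05 with 4 genes higher and 2 lower under quantile normalization. The shares of genes that rose (2.94%) and fell (14.7%) lay below those of all probes (14.2% and 20%). The 5 genes that fell were 3 of the alpha ring, 1 of the beta ring and 1 of the base. PSMA4, an alpha subunit at the gate, read 4.50, 4.48 and 4.50 in the 24 h controls, 4.24, 4.35 and 4.26 at 3.0 µg/cm2, and 4.32, 4.23 and 4.10 at 6.0 µg/cm2. Every exposed array was below every control, and the gene fell by 0.21 (SE 0.05, adjusted p = 0.0435) and by 0.28 (SE 0.07, adjusted p = 0.0202). It was the only subunit gene that changed at 3.0 µg/cm2 and 24 h (0% rose and 2.94% fell, beside 5.69% and 6.5% of all probes), and it lost that call without any 1 of the 6 arrays and with the slide as a block (adjusted p = 0.0887).

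PSMA2 read 4.46, 4.39 and 4.38 in the 24 h controls and 4.18, 4.19 and 4.13 at 6.0 µg/cm2, and fell by 0.24 (SE 0.05, adjusted p = 0.0133). PSMA3 read 4.37, 4.26 and 4.20 against 4.06, 4.10 and 4.05, and fell by 0.21 (adjusted p = 0.0396, and 0.0711 with the slide as a block). In both genes the groups did not overlap. PSMB4 read 5.14, 5.16 and 5.09 in the controls and 4.97, 4.87 and 4.81 when exposed, and fell by 0.25 (adjusted p = 0.0214), again without overlap. PSMD1 read 3.99, 4.07 and 3.98 against 3.84, 3.78 and 3.69 and fell by 0.24 (adjusted p = 0.0259). Its second probe showed no such difference, at 0.00 (adjusted p = 0.972). PSMC4, an ATPase of the base, was the 1 gene that rose: it read 3.48, 3.46 and 3.40 in the controls and 3.69, 3.71 and 3.84 at 6.0 µg/cm2, a change of 0.30 (SE 0.06, adjusted p = 0.0122).

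PSMD12 and the genes with a catalytic role did not pass at 24 h and 6.0 µg/cm2. PSMD12 read 2.01, 1.94 and 1.88 in the controls and 2.09, 2.13 and 2.01 when exposed (0.13, SE 0.06, adjusted p = 0.152). PSMB5 read 5.25, 5.37 and 5.29 in the controls and 5.26, 5.25 and 5.24 when exposed (-0.06, 95% interval -0.18 to 0.07). PSMB6 read 5.72, 5.67 and 5.61 against 5.52, 5.58 and 5.58 (-0.11, 95% interval -0.23 to 0.02). Of the catalytic genes, PSMB6 was thus lower on every exposed array while PSMB5 overlapped with its controls. PSMB7 read 4.84, 4.82 and 4.76 against 4.88, 4.88 and 4.82 (0.06, 95% interval -0.07 to 0.18). PSMD14 read 3.59, 3.57 and 3.48 against 3.58, 3.52 and 3.50 (-0.01, 95% interval -0.15 to 0.12). Both overlapped with their controls.

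The remaining genes at the ends of their classes at 24 h were also within reach of the spread between arrays. PSMA5, the highest of the alpha ring, read 4.36, 4.30 and 4.26 in the controls and 4.37, 4.36 and 4.31 at 6.0 µg/cm2 (0.04, adjusted p = 0.59). PSMC1, the lowest of the ATPases, read 4.88, 4.78 and 4.73 against 4.80, 4.68 and 4.73 (-0.06, adjusted p = 0.506). PSMD2 read 4.83, 4.79 and 4.77 against 4.83, 4.85 and 4.79 (0.03, adjusted p = 0.691). In all 3 the groups overlapped, and so they did in the chaperones PSMD9, at 3.86, 3.76 and 3.64 against 3.81, 3.87 and 3.91 (0.11, adjusted p = 0.27), and PSMD5, at 0.59, 0.60 and 0.56 against 0.59, 0.55 and 0.50 (-0.04, adjusted p = 0.562). PSMD7, the lowest of the lid, read 4.15, 4.21 and 4.07 against 4.05, 4.04 and 3.94, with every exposed array lower (-0.13, adjusted p = 0.148). PSMC3 and PSMD10 changed by 0.12 and 0.08 (adjusted p = 0.139 and 0.612). The count of 5 genes that fell was 1 without control replicate 1, control replicate 2 or exposed replicate 2, 2 without exposed replicate 3 and 3 without control replicate 3. In the same comparison 1 of the 5 epithelial markers rose (KRT19, 0.78) and 2 fell (CDH1, by 1.22, and EPCAM, by 0.80), and of the 5 measurable markers of other cell types CD68 rose by 2.29 while COL1A1, CD14 and PTPRC fell by 1.85, 0.70 and 0.63. Their part in the subunit gene results was not tested. Between 6.0 and 3.0 µg/cm2 at 24 h, 0 of the 34 genes differed in either direction (limma, also 0 by the methods' t-test and at an unadjusted p under 0.05, which 26.9% of probes reached), beside 3.68% of all probes higher and 5.35% lower.

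The response at 72 h was set against that at 24 h as a difference of 2 log2 fold changes, each against the controls of its own time. At 6.0 µg/cm2 this difference was positive in 15 genes (44.1%) and negative in 0, beside 20.4% and 17.5% of all probes. At an unadjusted p under 0.05 it was positive in 20 and negative in 1 (47.2% of probes in either direction). The difference was largest in PSMD12, 0.62 (SE 0.09, adjusted p = 0.000378), and PSMD1, 0.59 (adjusted p = 0.000222), which fell at 24 h and rose at 72 h. The second probe of PSMD1 gave a difference of 0.17, which did not pass (adjusted p = 0.0828), and 0.14 at 3.0 µg/cm2 (adjusted p = 0.159). PSMA3 also fell at 24 h and rose at 72 h, a difference of 0.49 (adjusted p = 0.00171). For 3.0 µg/cm2 the difference was positive in 10 genes (29.4%) and negative in 0, beside 10.7% and 9.87% of all probes, with 16 and 1 at an unadjusted p under 0.05 (35.4% of probes). Of these 10 genes 9 were among the 15. Under quantile normalization the counts were 5 positive and 1 negative at each dose. Beside these, 4414 and 4205 of 22608 probes were called at 6.0 µg/cm2, and 2062 and 2476 of 22621 at 3.0 µg/cm2. At 6.0 µg/cm2 the positive share of subunit genes then lay below that of all probes. With the main normalization, the positive count at 6.0 µg/cm2 was 7 to 9 without any 1 of several arrays. At 24 h these were control replicates 1 and 2 and exposed replicates 2 and 3. At 72 h they were control replicates 2 and 3 and exposed replicate 2. The count at 3.0 µg/cm2 was 6 without control replicate 2 of either time, exposed replicate 1 or 3 at 24 h or exposed replicate 2 at 72 h.

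**Figure D5:**
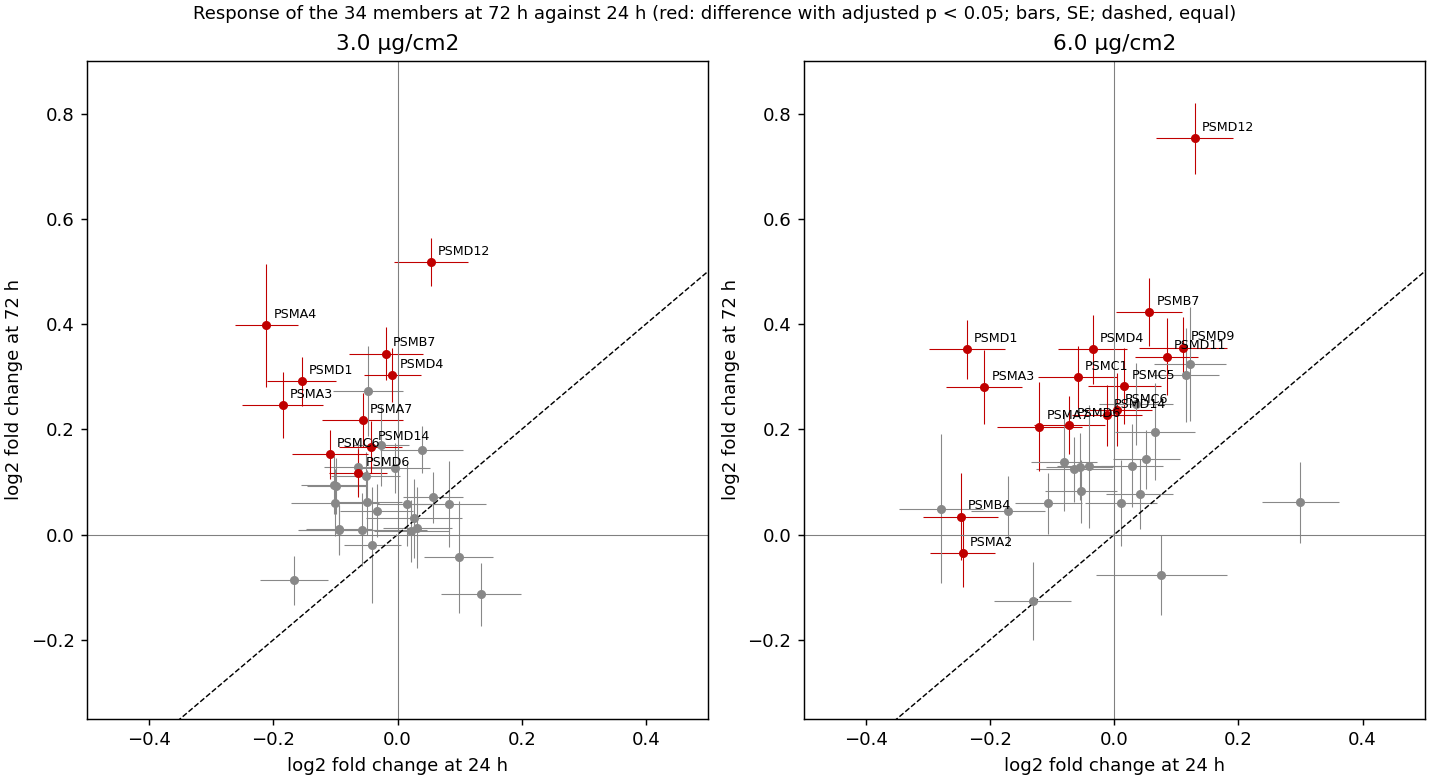
Log2 fold change of the 34 subunit genes against controls at 72 h (vertical axis) and at 24 h (horizontal axis), with SE bars, at 3.0 (left) and 6.0 µg/cm2 (right). Red genes differ between the times with an adjusted p under 0.05, 10 at 3.0 and 15 at 6.0 µg/cm2, and all of them lie above the dashed line of equal change; PSMD12 stands highest at both doses.

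The controls themselves differed between the times, within 1 scan day. From 24 h to 72 h in unexposed cells, 2 genes rose (5.88%) and 6 fell (17.6%), beside 34.3% and 24.9% of all probes, and the median was -0.08 against 0.06 over all probes. PSMC4 rose by 0.59 (SE 0.06, adjusted p = 0.000361), or 1.50-fold, and PSMD2 by 0.37 (adjusted p = 0.00341). PSMD12 fell by 0.41 (SE 0.06, adjusted p = 0.00155) and PSMA4 by 0.47 (SE 0.11, adjusted p = 0.00978), and PSMC6, PSMD1, PSMD6 and PSMD7 fell by between 0.19 and 0.28, of which PSMD7 did not pass with the slide as a block (adjusted p = 0.0511). PSMD12 at 72 h thus stood at 2.04 to 2.06 at 3.0 µg/cm2 and 2.19 to 2.34 at 6.0 µg/cm2, above the 24 h controls, which ran from 1.88 to 2.01 and were scanned on another day. PSMB7 in controls differed by -0.04 between the times (adjusted p = 0.585), and its exposed arrays at 72 h, from 5.07 to 5.27, lay above all control arrays of both times.

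At the 3 lowest doses, all at 24 h, 0 of the 34 genes rose or fell by limma and by the methods' t-test. At 0.1 µg/cm2 the background was 0% of probes in either direction, and 0 subunit genes were higher and 1 lower at an unadjusted p under 0.05 (9.44% of probes): PSMA4, at -0.39 (SE 0.08, adjusted p = 0.236). At 1.0 µg/cm2 the background was 0.00948% in each direction. There the median of the subunit genes was -0.11, 28 of 34 were below 0 and 6 above (17.6%, beside 47.3% of all probes), and 8 were lower and 2 higher at an unadjusted p under 0.05 (17.6% of probes), led by PSMA7 at -0.27 (SE 0.07, adjusted p = 0.13) and PSMB6 at -0.21 (adjusted p = 0.165). The all-probe median was -0.01, and under quantile normalization the median of the subunit genes was -0.02. In set A replicates 1 and 2 deviated together, as did 3 and 4 (correlation within pairs 0.872 at 0.1 and 0.807 at 1.0 µg/cm2), so the arrays may hold fewer independent samples than their number. At 1.5 µg/cm2 the median was -0.04, with 3.27% of all probes higher and 0.171% lower, and 0 genes had an unadjusted p under 0.05 (16.7% of probes). Within the second of 2 scan days 2 genes were higher (5.88%) and 5 lower (14.7%), beside 14.7% and 12.3% of all probes in that fit, and 0 within the first. The second day holds replicates 3 and 4, and at this dose replicates 1 and 2 as well as 3 and 4 also deviated together (correlation within pairs 0.63).

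The other genes of the ubiquitin-proteasome pathway were taken as a list of 37, of which 34 could be tested. The probes of NFE2L2, PSMA8 and PSMB11 were not well above background on all arrays of any group compared. At 6.0 µg/cm2 and 72 h 14 rose and 2 fell (41.2% and 5.88%, beside 23.8% and 22% of all probes), with a median of 0.14. The counts at 3.0 µg/cm2 and 72 h were 8 and 2 (23.5% and 5.88%, beside 12.9% and 13.9%). At 24 h they were 3 and 8 at 6.0 µg/cm2 (8.82% and 23.5%, beside 14.2% and 20%) and 1 and 2 at 3.0 µg/cm2 (2.94% and 5.88%, beside 5.69% and 6.5%), which lay near or below the shares of all probes.

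Of these, 5 were modulated at 6.0 µg/cm2 and 72 h. PSMG3, a chaperone of alpha ring assembly, read 1.73, 1.70 and 1.76 in the controls and 2.37, 2.44 and 2.55 when exposed, and rose by 0.72 (SE 0.07, adjusted p = 0.000434). PSMB10, the interferon-inducible counterpart of PSMB7, read 3.39, 3.43 and 3.50 against 4.19, 4.13 and 4.09, and rose by 0.69 (SE 0.06, adjusted p = 0.000357). UCHL5, a deubiquitinase of the base, read 0.71, 0.70 and 0.69 against 1.39, 1.42 and 1.32, and rose by 0.68 (SE 0.06, adjusted p = 0.000269). In these 3 genes no exposed array came near the controls. DDI2, the protease that activates NFE2L1, rose by 0.62 (SE 0.19, adjusted p = 0.0351) with 1 control array at -4.98 and the exposed arrays at -4.78, -4.75 and -4.91. Its probe was dim and well above background on 36 of 38 arrays, where the other modulated genes were so on all 38. PSME1, a subunit of the interferon-inducible activator cap, fell by 0.70 (SE 0.09, adjusted p = 0.0013), from 0.57, 0.51 and 0.45 to -0.06, -0.16 and -0.35. By class, 3 of 5 genes of core particle assembly, 2 of 5 further base and lid partners and 2 of 3 tested genes of subunit transcription rose, and of the 3 tested immunoproteasome genes 2 rose and 1 fell.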

How the data were processed

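Total RNA of A549 cells was hybridized by the authors, labelled with Cy3, to 38 single-colour Agilent whole-genome arrays. The deposited files hold scanner intensity values written by Agilent Feature Extraction 10.10.1.1 (set A) or 11.0.1.1 (sets B and C, both versions per the file headers): the background-subtracted processed signal, and the median signal and background. The deposited series table holds log-free intensity values equal to the median signal within 0.01 at all 1690810 values compared. No replicates were pooled.

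Here the processed signal was taken to log2 and each array's 75th percentile was subtracted. Control spots and spots marked non-uniform or outlying (0.612%) were left out, and the spots of a probe were averaged. Of 34127 probes, 25780 were named through their accession in RefSeq (GRCh38.p14). Probes were tested if all arrays of 1 or more of the compared groups read them well above background, with limma 3.58.1 in R 4.3.3, each exposed group against the controls of its own set and time, without pairing, as in the study's methods. The replicate number marks the slide in sets B and C at 24 h and in the 72 h controls, per the labels. Replicate numbers deviated together (every correlation above 0.1) only between 3.0 and 6.0 µg/cm2, at 24 h (0.362 to 0.431) and at 72 h (0.204 to 0.644). Depth is not defined for arrays, and their number limits the precision. The steps were tested on simulated data.

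Values of single arrays at the dose and time described were given for genes modulated in an exposed group against its controls, the catalytic subunits and PSMD14. They were also given for the highest and lowest of each role class at 6.0 µg/cm2. Other genes named among a count were chosen after their values were seen. The members and lists were chosen with earlier results of these data known. The time of the exposed 72 h arrays follows their source name, since another label gives 24 h.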

Additional observations from a re-analysis of the deposited data

Results flagged for a closer look

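The response to silica differed between 72 h and 24 h, tested as a difference of log2 fold changes, in the following subunit genes, all with the larger value at 72 h. At 6.0 µg/cm2 the difference was 0.21 in PSMA2, 0.49 in PSMA3, 0.33 in PSMA7, 0.28 in PSMB4, 0.37 in PSMB7, 0.36 in PSMC1, 0.27 in PSMC5 and 0.23 in PSMC6. It was 0.59 in PSMD1, 0.39 in PSMD4, 0.28 in PSMD6, 0.25 in PSMD11, 0.62 in PSMD12, 0.24 in PSMD14 and 0.24 in PSMD9. At 3.0 µg/cm2 it was 0.43 in PSMA3, 0.61 in PSMA4, 0.27 in PSMA7, 0.36 in PSMB7, 0.26 in PSMC6, 0.45 in PSMD1, 0.31 in PSMD4, 0.18 in PSMD6, 0.46 in PSMD12 and 0.21 in PSMD14. PSMB4 and PSMA2 fell at 24 h and did not pass at 72 h. Exposed arrays of the 2 times differed in slide and scan day, neither of which can be told apart from the time.

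In groups of 4 arrays, 1 array stood far from the other 3 in 5 of 170 combinations of gene and group, where chance gives about 1 in 20. The level was 4.12 for PSMA1 on control replicate 4 of set B, 4.19 for PSMA4 on replicate 3 at 1.5 µg/cm2, 2.96 for PSMB2 on replicate 3 at 0.1 µg/cm2, 4.72 for PSMC1 on control replicate 1 of set B and 1.44 for PSMD10 on replicate 2 at 1.0 µg/cm2.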

How the results depend on the processing

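The upward calls at 6.0 µg/cm2 and 72 h numbered 10 to 20 under 7 of 9 alternatives and 7 without a filter on dim probes and 7 with the replicate number as a block, with no gene lower in any. The block left 2 genes higher at 3.0 µg/cm2 and 72 h, beside 1097 of 21959 probes. It left 0 lower at 3.0 µg/cm2 and 24 h, beside 910 of 22096 probes. In the controls of sets B and C and in their exposed groups at 24 h the number also marks the slide, and there the block took away PSMA4 at 3.0 µg/cm2, PSMA3 at 6.0 µg/cm2 and PSMD7 in the controls and changed no other call, nor any between 6.0 and 3.0 µg/cm2. In set A and between exposed and control at 72 h the samples share only a number. Quantile normalization gave 0 lower at 3.0 and 4 higher and 2 lower at 6.0 µg/cm2 at 24 h, 1 lower at 3.0 µg/cm2 and 72 h, 2 higher at 6.0 against 3.0 µg/cm2 at 72 h, and 5 higher and 1 lower in the time differences at each dose. Normexp background correction gave 2 lower at 3.0 and 0 at 6.0 µg/cm2 at 24 h, 3 higher at 6.0 against 3.0 µg/cm2 at 72 h, 1 lower in the time difference at 3.0 and 9 higher in that at 6.0 µg/cm2. Without the filter the counts were 0 lower at 3.0 and 1 lower at 6.0 µg/cm2 at 24 h, 4 higher at 3.0 µg/cm2 and 72 h, 0 at 6.0 against 3.0 µg/cm2, and 6 and 7 higher in the time differences. The series table gave 0 lower at 3.0 µg/cm2 and 24 h, 11 higher at 3.0 µg/cm2 and 72 h and 2 at 6.0 against 3.0 µg/cm2, the methods' t-test 11 and 4 in the last 2, the strict filter 2 and the mean of all probes 3 at 6.0 against 3.0 µg/cm2. With all arrays of the set in 1 fit the counts were 3 lower at 3.0 µg/cm2 and 24 h, 14 higher at 3.0 µg/cm2 and 72 h, 7 higher and 1 lower at 6.0 against 3.0 µg/cm2 at 72 h, and 4 higher and 13 lower in the controls. Within the second scan day at 1.5 µg/cm2 there were 2 higher and 5 lower, from 2 arrays a group. The cause of these shifts was not tested. With 1 array left out the counts were 0 to 0 lower at 3.0 and 1 to 5 lower at 6.0 µg/cm2 at 24 h, 4 to 5 higher at 3.0 and 7 to 14 higher at 6.0 µg/cm2 at 72 h, 0 to 2 higher and 0 to 1 lower between these, 4 to 7 lower in the controls, and 6 to 9 and 7 to 13 higher and, at 6.0 µg/cm2, 0 to 1 lower in the time differences. PSMD9 at 3.0 µg/cm2 and 72 h reversed to -0.027 with the mean of its probes. For single genes, 796 alternative values kept their side of the threshold and 298 lost it. The all-probe median moved by over 0.1 under normexp at 6.0 µg/cm2 and 24 h (by 0.14), between 6.0 and 3.0 µg/cm2 at 24 h (0.10) and in the time difference at 6.0 µg/cm2 (-0.22), and under the series table at 72 h at 3.0 (-0.13) and 6.0 µg/cm2 (-0.14) and in the time differences (-0.14 and -0.15). Slide as a random block was run only at 0.1 and 1.0 µg/cm2. At 6.0 µg/cm2 and 72 h no slide held more than 1 of the arrays compared.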

Other observations

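Some further genes of the pathway were measured. At 24 h UBB, which encodes ubiquitin, rose at 6.0 µg/cm2 by 0.28 (SE 0.05, adjusted p = 0.00655), while the activator genes PSME1 and PSME2 fell by 0.51 (adjusted p = 0.00229) and 0.26 (adjusted p = 0.0123). SEM1, a small lid subunit outside the list of 34, fell by 0.47 (adjusted p = 0.00174) and PAAF1, a chaperone that restrains assembly of the complex, by 0.27 (adjusted p = 0.0119). At 72 h and 6.0 µg/cm2 the immunoproteasome genes were split, with PSMB9 higher by 0.58 (SE 0.06, adjusted p = 0.000556) and PSMB8, where it fell by 0.33 (SE 0.08, adjusted p = 0.012), lower. These genes were chosen after their values were seen. The second probe of PSMD10 changed by -0.44 (adjusted p = 0.0578) at 24 h and -0.27 (adjusted p = 0.0996) at 72 h, where the brighter probe gave 0.08 and -0.08.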
